A study of Homo sapiens with 8 samples.

Results

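The 37 genes described here are ribosome biogenesis genes that are commonly placed downstream of the transcription factor MYC, chosen as a list of named genes with MYC itself left out. The count table held 28518 genes, and all 37 were found in it by symbol. All 37 also passed the filter on low counts, which left 14834 genes for testing. By role they comprised 3 RNA polymerase I subunits, 6 abundant nucleolar proteins, 5 proteins of small nucleolar ribonucleoproteins (snoRNPs), 8 small-subunit assembly factors, 12 large-subunit assembly factors and 3 enzymes of polyamine and pyrimidine synthesis. RNA was sequenced from HaCaT cells (human keratinocytes that became immortal spontaneously), and every group carried a CARD14 knockout. The cells received 9 ug of plasmid encoding CARD14 joined through a T2A peptide to eGFP, either wild-type (WT) or carrying R820W, N737H or I593T, variants that the series describes as hypomorphic, and cells positive for GFP were collected by sorting at 24 h. Each of the 4 groups had 2 libraries, marked A and B. The series describes 2 independent experiments, and the labels do not state in words that a letter names an experiment. Whether the knockout line was 1 clone is not given in the sources used here, and cells without CARD14 plasmid were not analysed here. The study asked which pathways differed between the variants and wild-type CARD14, and its title names regulation of MYC.

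Ribosome biogenesis begins in the nucleolus, where RNA polymerase I transcribes the ribosomal RNA precursor. The precursor is modified by snoRNPs, folded and cleaved by assembly factors of the small and the large subunit, and exported as pre-ribosomal particles. MYC binds as a heterodimer with MAX to the E-box CACGTG and is known to raise transcription of many nucleolar genes, of RNA polymerase I components and of ODC1, SRM and CAD, so this set is a usual readout of MYC activity in growing cells, basal keratinocytes included.

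The E-box was therefore looked for in the promoters of the genes. RefSeq promoter windows (build GRCh38.p14), each running from 250 bases before to 50 after an annotated start, were matched by symbol for 31 of the 37 genes. BOP1, DDX18, NOLC1, NOP58, RRP12 and RRS1 had no match. CACGTG is its own reverse complement, so a single search covers both strands. Of the 31 genes, 14 (45.2%) held it in at least 1 window, namely DDX21, LYAR and MYBBP1A, FBL and RRP9, BYSL, PNO1, UTP20 and WDR43, GNL3, NOP2 and PES1, and ODC1 and SRM. The same letters were found for 8.8% of the 27305 genes in the promoter table and for 12.4% of the 9809 genes tested here that had a window. By window, the shares were 36.8% of 38 for the list and 7.3% of 35116 for the table. The first search had covered the 250 bases before the start alone and found the motif in 5 of the 31 genes (16.1%; DDX21, LYAR, ODC1, SRM and UTP20) against 7.7% of all genes. The longer window was taken after the motif of FBL had been seen just past its start. A match is a description of the sequence and not a measured binding site.

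Of these promoters, 4 are shown because their genes are named in the comparisons below: ODC1 among the genes lower with the variants, UTP20 for its difference between the letters, and FBL and RRP9 among those with higher values. Each run holds the 250 bases before the annotated start and the first 30 after it, 5′ to 3′ on the gene's strand, with the E-box in capitals. In GRCh38.p14 the runs lie at chr2:10447983-10448262 on the minus strand for ODC1, chr19:39846350-39846629 on the minus strand for FBL, chr3:51941875-51942154 on the minus strand for RRP9 and chr12:101279855-101280134 on the plus strand for UTP20.
ODC1: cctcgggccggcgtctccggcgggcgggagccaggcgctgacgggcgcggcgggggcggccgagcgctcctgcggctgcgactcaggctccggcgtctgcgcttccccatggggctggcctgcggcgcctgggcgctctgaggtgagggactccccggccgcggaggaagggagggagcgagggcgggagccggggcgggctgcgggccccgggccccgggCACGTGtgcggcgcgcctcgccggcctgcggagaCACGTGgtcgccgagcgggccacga
FBL: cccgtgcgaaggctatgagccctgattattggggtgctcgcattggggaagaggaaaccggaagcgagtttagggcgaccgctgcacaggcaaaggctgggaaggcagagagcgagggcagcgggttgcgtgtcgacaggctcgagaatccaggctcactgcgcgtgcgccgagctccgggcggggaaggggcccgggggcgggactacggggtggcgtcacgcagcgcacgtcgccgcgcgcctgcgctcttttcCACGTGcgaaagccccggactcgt
RRP9: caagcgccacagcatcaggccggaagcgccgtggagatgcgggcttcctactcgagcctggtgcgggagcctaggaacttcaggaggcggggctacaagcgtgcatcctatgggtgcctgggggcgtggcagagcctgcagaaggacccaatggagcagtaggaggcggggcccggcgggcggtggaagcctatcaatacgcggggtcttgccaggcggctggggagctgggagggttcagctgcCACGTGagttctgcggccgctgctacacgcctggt
UTP20: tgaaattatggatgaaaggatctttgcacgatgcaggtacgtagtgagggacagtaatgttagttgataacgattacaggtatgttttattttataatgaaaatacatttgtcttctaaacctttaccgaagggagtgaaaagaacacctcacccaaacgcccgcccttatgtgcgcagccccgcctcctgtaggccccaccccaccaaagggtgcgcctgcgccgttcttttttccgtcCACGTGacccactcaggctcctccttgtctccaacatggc

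ODC1 was the only one of the 31 genes with 2 copies in a window, which 0.8% of the genes in the table had. Its first copy began 29 bases before the start and its second 5 bases after it. ODC1 had another annotated start, whose window lacked the motif, as did DDX21, LYAR and GNL3. In UTP20 the motif began 10 bases before the start, in RRP9 it began 5 bases before the start and ran across it, and in FBL it began 6 bases after the start. Most of the other motifs also lay close to the start: those of WDR43, GNL3, PNO1, PES1, MYBBP1A, BYSL and NOP2 began 3 to 35 bases after it and those of DDX21 and LYAR 31 and 64 bases before it. SRM was the exception, with a motif that began 199 bases before the start.

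**Figure D1:**
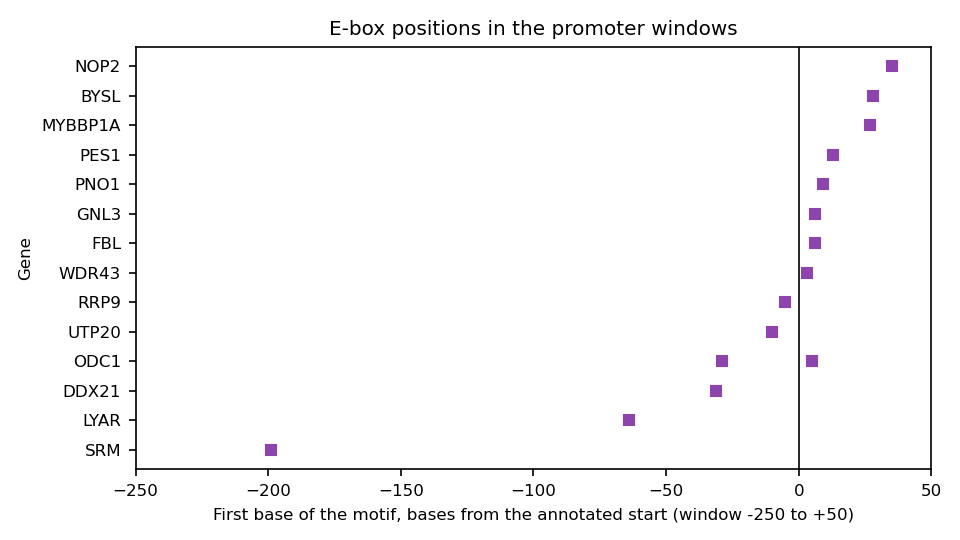
Position of each CACGTG motif (horizontal axis, bases from the annotated start of the RefSeq window) in the 14 genes of the list that hold one (vertical axis). All but the motif of SRM, 199 bases before the start, lie between 64 bases before and 35 bases after it.

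The libraries held 17892608 to 24629860 counts, of which the 37 genes took 0.828% to 0.980%. The lowest count of any of the genes in a library was 45 (PPAN) and the highest 44999 (NPM1). Of the keratinocyte markers, 11 of 11 were detected in every library (KRT14 at 872 to 1550 CPM, the count scaled to library size), while VIM stayed at or below 0.652 CPM, PTPRC at or below 0.193, and TYR was at 0 in every library. The other melanocyte markers MLANA (0.564 to 2.21 CPM) and PMEL (0.639 to 2.01), the endothelial markers PECAM1 (0.395 to 1.57) and CDH5 (0.386 to 1.28) and the kidney-line marker LHX1 (2.93 to 4.07) were detected at low levels in every library. CARD14, whose reads come from the plasmid as well as from what remains of the disrupted gene and so do not check the knockout, was measured at 1127 and 978 CPM in WT (A and B), 1190 and 1409 in R820W, 444 and 1004 in N737H and 499 and 1393 in I593T. In bulk RNA, fewer cells with a transcript and less of it per cell cannot be told apart. As the labels do not say that A and B came from separate cultures beyond the mention of independent experiments, p-values speak of the spread among these libraries only.

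A few libraries stood apart for these genes. WT A was the highest of the 8 libraries for 17 of the 37 genes and I593T B for 12, while R820W B was the lowest for 17 and N737H B for 8. The median deviation of the 37 genes from their own 8-library means was 0.12 on the log2 scale in WT A, -0.15 in R820W B and -0.12 in N737H B, and between -0.02 and 0.05 in the other 5 libraries, against -0.01 to 0.00 for the median of all tested genes.

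**Figure D2:**
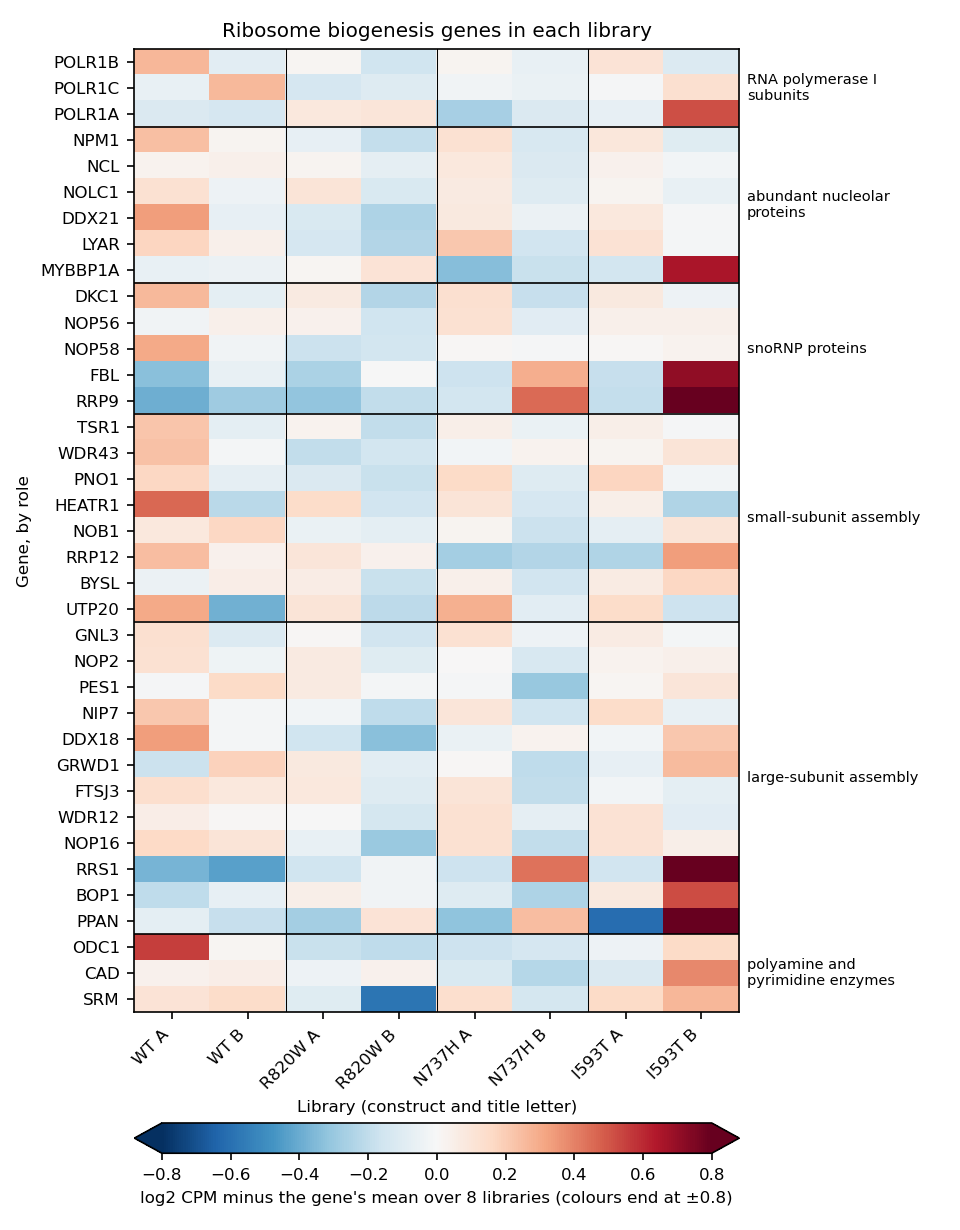
Deviation of each of the 37 genes (vertical axis, by role) from its own mean over the 8 libraries (horizontal axis), in log2 CPM on a colour scale. WT A is the highest library for 17 genes and R820W B the lowest for 17, and in I593T B a few genes stand far above the rest.

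The genes were more abundant than most and varied less between libraries. Per kilobase of the longest coding transcript, the median of their mean levels was 54.0 CPM per kb, against 5.08 for all 12496 tested genes with a length. By role the median was 168 CPM per kb for the snoRNP proteins, 112 for the abundant nucleolar proteins, 46.6 and 40.5 for the small- and large-subunit assembly factors, 31.4 for the polymerase subunits and 10.6 for the enzymes. NPM1 stood at 971 CPM per kb and POLR1A at 1.18. The ratio of the highest to the lowest library had a median of 1.37 over the 37 genes (range 1.15 for NCL to 3.38 for PPAN), against 1.65 for all tested genes with a length and 1.53 for those with a mean CPM at least that of the least abundant gene of the list. The ratio was over 2 for FBL, RRP9, RRS1 and PPAN (10.8% of the genes, against 33.9% of all). Among tested genes with a mean CPM at least that of the least abundant gene of the list, the share was 19.3%. Their median level was 9.19 CPM per kb, below the 54.0 of the list. This comparison therefore cannot separate lower variation of the list from its higher level. FBL, RRP9, RRS1 and PPAN had their highest value in I593T B. PPAN shares exons with the read-through gene PPAN-P2RY11, however. The sum of the pair ran only from 3.58 to 6.13 CPM, and was 6.04 in I593T A and 6.13 in I593T B.

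Of the RNA polymerase I subunits, POLR1B and POLR1C varied less than POLR1A. POLR1B, which forms the catalytic core with POLR1A, was the most abundant of the 3 at 189.8 and 149 CPM in WT (A and B), 160.0 and 142 in R820W, 160.4 and 152 in N737H and 170.4 and 147 in I593T. In each construct library A was the higher, and the constructs overlapped. POLR1A, the largest subunit, was measured at 13.7 and 13.5 CPM in WT, 15.8 and 15.9 in R820W, 12.4 and 13.7 in N737H and 14.2 and 21.2 in I593T. Both R820W and both I593T libraries lay above both WT libraries. POLR1C, shared with RNA polymerase III, ranged from 123 to 161 CPM.

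Among the abundant nucleolar proteins, NPM1 (nucleophosmin, a histone and ribosome chaperone) had the highest level of the list, with 2008 and 1728 CPM in WT, 1626 and 1488 in R820W, 1847 and 1555 in N737H and 1811 and 1591 in I593T. It was higher in A than in B in each construct, and both R820W libraries lay below both WT libraries. NPM1 has many processed pseudogenes, so some of its reads may have been placed elsewhere. NCL (nucleolin) was the steadiest of the list at 1262 to 1454 CPM. MYBBP1A, a nucleolar MYB-binding protein, was measured at 31.6 to 43.2 CPM in 7 libraries and at 62.9 in I593T B.

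The snoRNP proteins split by gene. DKC1 (dyskerin, the pseudouridine synthase of H/ACA snoRNPs) was the most abundant, at 614 and 487 CPM in WT, 539 and 437 in R820W, 561 and 451 in N737H and 543 and 498 in I593T, again with A above B each time. FBL (fibrillarin, the methyltransferase of C/D snoRNPs) went the other way, at 48.3 and 58.5 CPM in WT, 51.2 and 60.9 in R820W, 54.5 and 74.5 in N737H and 53.6 and 99.8 in I593T. All 4 B libraries exceeded all 4 A libraries. RRP9, a component of the U3 snoRNP that directs early cleavage of the precursor, had 18.7 and 20.1 CPM in WT, 19.7 and 21.4 in R820W, 22.2 and 33.6 in N737H and 21.5 and 51.7 in I593T, so that I593T B stood apart and the A libraries were close together. NOP56 and NOP58, the paired core proteins of C/D snoRNPs, ranged from 412 to 500.1 and from 358 to 498 CPM.

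Of the small-subunit assembly factors, TSR1, a GTPase-like late factor, was the most abundant at 407 and 329.5 CPM in WT, 355 and 304 in R820W, 359 and 335 in N737H and 360.2 and 345 in I593T. HEATR1 (the UTP10 homologue, which also acts in polymerase I transcription) was measured at 188 and 118 CPM in WT, 152 and 123 in R820W, 147 and 125 in N737H and 142 and 116 in I593T. UTP20, a scaffold of the processome, was measured at 73.9 and 45.8 CPM in WT, 64.3 and 51.7 in R820W, 72.8 and 56.3 in N737H and 66.3 and 53.4 in I593T. For each of these 3 genes every A library lay above every B library. RRP12, an export and processing factor, had 85.2 and 73.5 CPM in WT, 76.9 and 73.5 in R820W, 59.5 and 60.9 in N737H and 60.9 and 90.7 in I593T, and both N737H libraries were below both WT libraries.

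The large-subunit assembly factors included GNL3 (nucleostemin, a nucleolar GTPase), the most abundant at 318 and 269 CPM in WT, 293 and 261 in R820W, 317 and 283 in N737H and 304 and 288 in I593T. DDX18, a DEAD-box helicase, was measured at 195 and 153 CPM in WT, 139 and 123 in R820W, 149 and 158 in N737H and 152 and 179.5 in I593T. WT A was the highest library and both R820W libraries the lowest. RRS1, which brings the 5S ribonucleoprotein into the large subunit, had 33.4 and 32.0 CPM in WT, 38.7 and 42.4 in R820W, 38.7 and 58.4 in N737H and 38.9 and 80.5 in I593T. Every variant library was above both WT libraries, the A libraries of the variants lay at nearly the same level, and N737H B and I593T B stood above them.

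BOP1 and PES1 form the PeBoW complex with WDR12. BOP1 was measured at 16.3 and 17.9 CPM in WT, 19.4 and 18.4 in R820W, 17.4 and 15.8 in N737H and 19.8 and 27.0 in I593T. PES1 was measured at 235 and 264 CPM in WT, 249 and 235 in R820W, 236 and 192 in N737H and 239.5 and 254 in I593T. I593T B was the highest library for BOP1 and N737H B the lowest for PES1. FTSJ3, a methyltransferase, had 155 and 150.1 CPM in WT, 150.3 and 132 in R820W, 152 and 123 in N737H and 139 and 134 in I593T, with both I593T libraries below both WT libraries. PPAN, whose values are uncertain, was the least abundant at 1.81 to 6.13 CPM: its reads share exons with the read-through gene PPAN-P2RY11, and PPAN took from 30% (I593T A) to 100% (I593T B) of the counts of the pair, whose sum ran only from 3.58 to 6.13 CPM.

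The 3 enzymes had lower levels. ODC1 (ornithine decarboxylase, the first step of polyamine synthesis) was measured at 40.5 and 27.9 CPM in WT, 24.4 and 23.9 in R820W, 24.6 and 25.1 in N737H and 26.8 and 30.7 in I593T. WT A stood above the other 7 libraries, and both R820W and both N737H libraries were below WT B as well. SRM (spermidine synthase) had 17.6 and 18 CPM in WT, 15.2 and 10.8 in R820W, 17.9 and 14.7 in N737H and 18.1 and 19.6 in I593T, lowest in R820W B. CAD, which starts pyrimidine synthesis, ranged from 18 to 27.6 CPM, highest in I593T B.

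**Figure D3:**
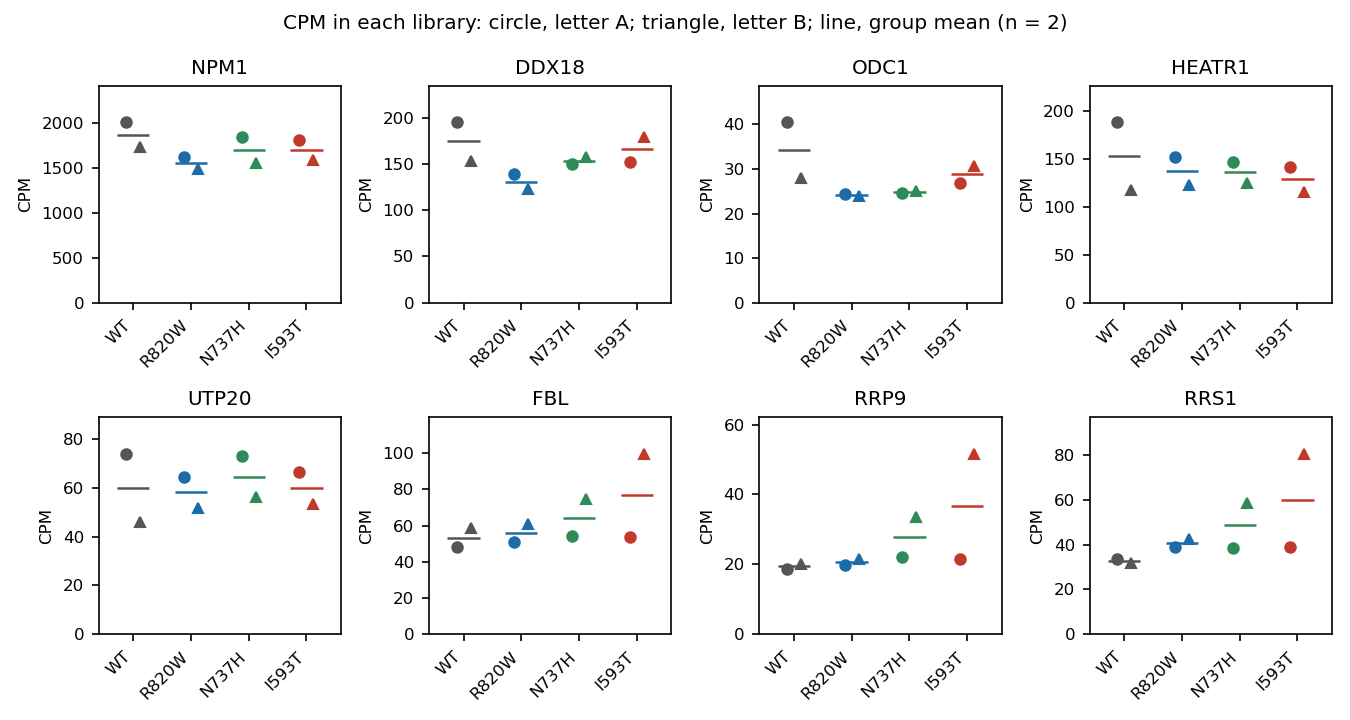
CPM (vertical axis, from 0) of 8 of the genes, picked after their values were seen, in the 4 construct groups (horizontal axis); circles are A libraries, triangles B libraries and lines the means of 2. NPM1, HEATR1 and UTP20 are higher in A in every construct, FBL in B, and the high RRP9 and RRS1 values belong to the B libraries of N737H and I593T.

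With R820W, most of the genes had lower values than with WT, by small amounts. Of the 37 genes, 30 had a lower and 7 a higher estimate, and the median log2 fold change was -0.10 (range -0.50 to 0.31). Over all tested genes 52.0% were lower and the median was -0.01. By role, all 8 small-subunit factors were lower (median -0.16), as were 5 of 6 abundant nucleolar proteins (-0.16), 9 of 12 large-subunit factors (-0.07), 3 of 5 snoRNP proteins (-0.07), 2 of 3 polymerase subunits (-0.17) and all 3 enzymes (-0.45). No gene passed: 0 of 37 had an adjusted p under 0.05 by edgeR's quasi-likelihood test, and of all genes tested 0% did. At an unadjusted p under 0.05 there were 2, ODC1 and DDX18, where 1.04% of all genes were called, and DESeq2 and limma voom also called 0 after adjustment.

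ODC1 had a log2 fold change of -0.50 ± 0.21 (SE, n = 2 per group, edgeR adjusted p 1.00), DDX18 of -0.42 ± 0.17 and SRM of -0.45 ± 0.22. The highest 3 by p were RRS1 at 0.31 ± 0.34, POLR1A at 0.22 ± 0.23 and BOP1 at 0.14 ± 0.21, each smaller than its own standard error. Both R820W libraries lay below both WT libraries for 15 genes (40.5%), against 12.8% of all genes tested: POLR1C, NCL, NPM1, DDX21, LYAR, NOP58, WDR43, PNO1, NOB1, WDR12, NOP16, DDX18, NIP7, ODC1 and SRM. Both lay above for POLR1A, MYBBP1A, BOP1 and RRS1 (10.8%, against 12.6%). Within letter A the median of the 37 was -0.14 and within letter B -0.12, and 24 genes (64.9%, against 24.6% of all) were lower in both letters. The median of the 37 changed with WT A and R820W B. Without the former it was -0.04 and without the latter -0.03, with 22 genes lower in each case. Without WT A the median of all tested genes also moved, from -0.01 to 0.05, and that of the 37 stayed below it. Without R820W B the median of all tested genes stayed at -0.01. ODC1 and DDX18 were at -0.17 and -0.19 without WT A. SRM was at -0.21 without R820W B and -0.72 without R820W A.

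With N737H, 30 of the 37 genes again had lower and 7 higher estimates than with WT, with a median of -0.11 (range -0.46 to 0.57), against 54.2% lower and a median of -0.03 over all genes. All 6 abundant nucleolar proteins (median -0.10), all 3 polymerase subunits (-0.12) and all 3 enzymes (-0.22) were lower, with 7 of 8 small-subunit factors (-0.10), 9 of 12 large-subunit factors (-0.11) and 2 of 5 snoRNP proteins (0.01). By edgeR 0 of 37 passed the adjusted threshold (0% of all genes) and 0 had an unadjusted p under 0.05 (2.44% of all), and DESeq2 and limma voom called 0. ODC1 was at -0.46 ± 0.21, RRP12 at -0.40 ± 0.21 and PES1 at -0.22 ± 0.16, and RRS1 at 0.57 ± 0.34, RRP9 at 0.52 ± 0.38 and FBL at 0.27 ± 0.30 (edgeR, n = 2 per group, adjusted p 1.00 for each). The groups did not overlap for 5 genes that were lower (13.5%, against 12.4% of all; MYBBP1A, RRP12, NOB1, ODC1 and CAD) and 2 that were higher (5.41%, against 9.92%; RRP9 and RRS1). The lower median rested on WT A and N737H B. Without WT A it was 0.05, with 13 of 37 lower, and without N737H B it was 0.01, with 17 lower. The median of all tested genes was 0.06 and -0.02 in these fits, against -0.03 with every library. The named genes moved with the same libraries: ODC1 was at -0.11 and RRP12 at -0.23 without WT A, and PES1 was at -0.06, RRS1 at 0.26, RRP9 at 0.21 and FBL at 0.05 without N737H B. Within letter A the median was -0.05 and within letter B -0.11, and 13 genes (35.1%, against 22.6% of all) were lower in both letters.

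With I593T, the genes were divided, 22 lower and 15 higher than with WT, with a median of -0.03 (range -0.25 to 0.91) beside 54.4% lower and -0.02 for all genes. Counts of lower genes by role were 5 of 6 abundant nucleolar proteins, 5 of 8 small-subunit and 7 of 12 large-subunit factors, 2 of 3 polymerase subunits, 2 of 5 snoRNP proteins and 1 of 3 enzymes. By edgeR 0 of 37 passed (0% of all genes), and 2, RRS1 and RRP9, had an unadjusted p under 0.05 (1.43% of all). DESeq2 and limma voom called 0 of them. RRP9 was at 0.91 ± 0.38, RRS1 at 0.87 ± 0.34 and BOP1 at 0.45 ± 0.20, and ODC1 and HEATR1 at -0.25 ± 0.21 and -0.25 ± 0.24 and FTSJ3 at -0.16 ± 0.16 (edgeR, n = 2 per group, adjusted p 1.00 for each). The high values came with I593T B: without that library RRP9 was at 0.15, RRS1 at 0.25 and BOP1 at 0.21. That library was also unusual for SENP3, a gene outside the list. SENP3 was measured at 1191 CPM in I593T B and at 0.921 to 1.95 in the other libraries. The read-through gene SENP3-EIF4A1 stood at 3253 CPM in I593T B, within its range of 2804 to 3722. The reason, and any bearing on the 37 genes, was not tested. Both I593T libraries were above both WT libraries for 6 genes (16.2%, against 9.61% of all; POLR1A, RRP9, BYSL, BOP1, RRS1 and SRM) and below for FTSJ3 (2.70%, against 11.0%). The median was -0.09 within letter A and 0.07 within letter B, and 9 genes were lower in both (24.3%, against 26.4% of all). Without WT A the median turned to 0.12, with 32 of 37 genes higher, and ODC1 and HEATR1 to 0.09 and 0.18, while FTSJ3 was at -0.09. The median of all tested genes moved the same way in that fit, from -0.02 to 0.05.

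**Figure D4:**
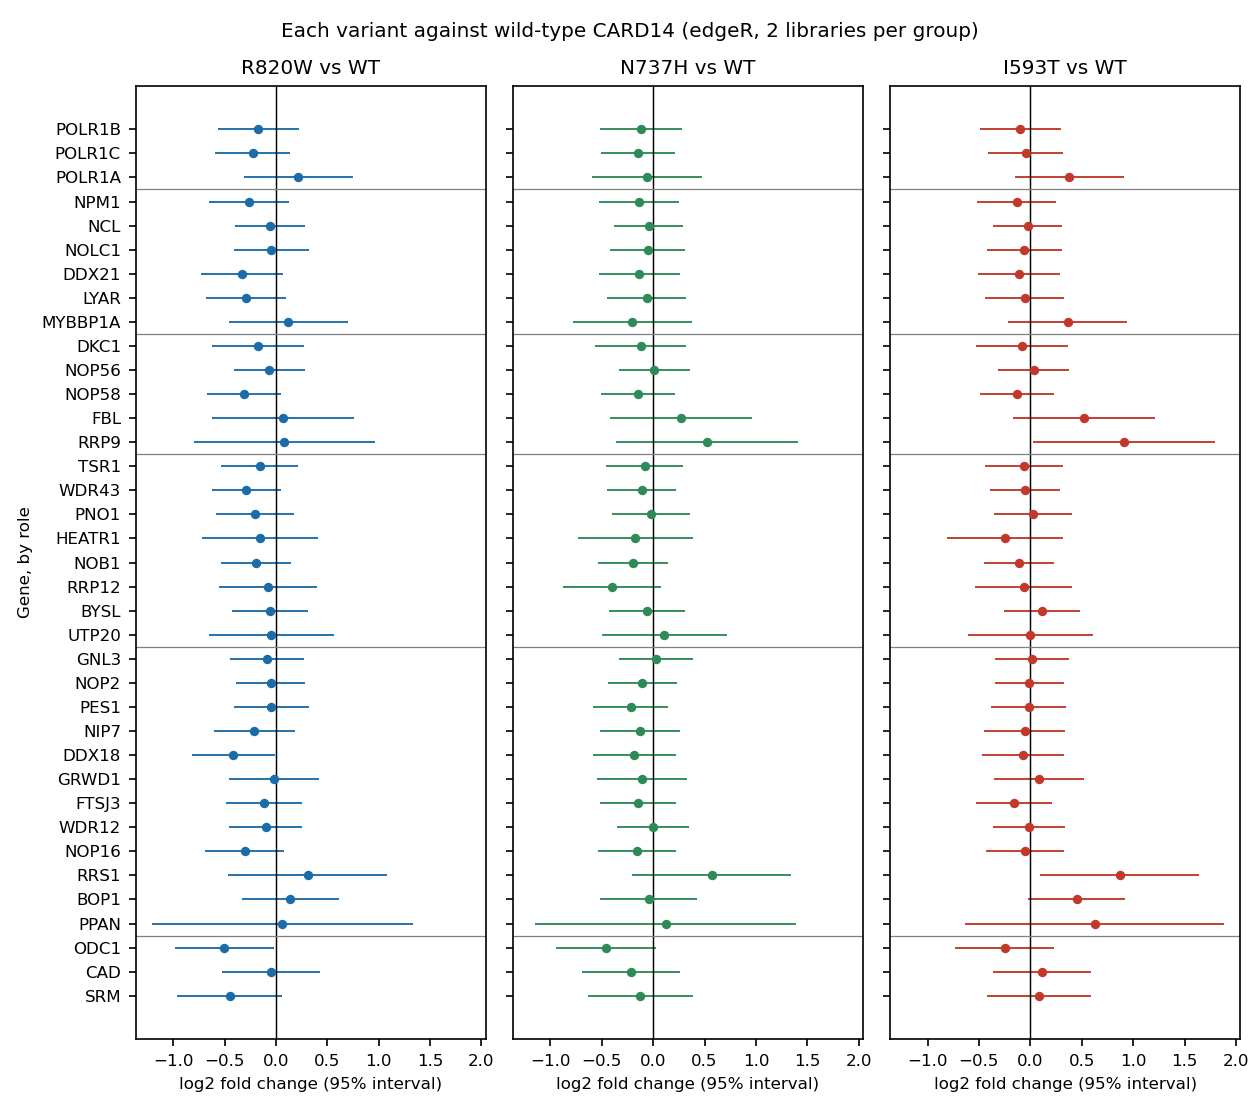
log2 fold change (horizontal axis) of each of the 37 genes (vertical axis, by role) in the 3 variants against WT, with the 95% interval of the edgeR fit (2 libraries per group). Points lie mostly left of 0 for R820W and N737H (30 of 37 each) and on both sides for I593T, where RRP9 (0.91) and RRS1 (0.87) reach farthest to the right.

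The comparisons with WT share the 2 WT libraries, so their common direction is no independent evidence. The 3 variants were also averaged and set against WT. Over all genes tested 54% were then lower, with a median of -0.02. Of the 37 genes, 29 were lower and 8 higher, with a median of -0.09. None passed by edgeR (0% of all genes), and ODC1, at -0.40 ± 0.17, was the only one with an unadjusted p under 0.05 (1.31% of all); DESeq2 and limma voom called 0. All 6 variant libraries were above both WT libraries for RRS1 alone (2.70%, against 2.47% of all), and for 0 genes were they all below (3.13% of all). Without WT A the median was 0.03, and 14 genes were lower. The median of all tested genes was then 0.06, against -0.02 with every library.

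Between the variants, most of the genes had higher values with I593T, and mainly in its B library. Against I593T, R820W was lower for 34 of the 37 genes, with a median of -0.16 where 49.7% of all genes were lower. In both letters 25 genes were lower (67.6%, against 26.3% of all). The libraries did not overlap for 14 genes, all lower in R820W (37.8%, against 13.2% of all; 15.0% of all were higher). By edgeR 0 passed (0% of all), with SRM, at -0.53 ± 0.22, at an unadjusted p under 0.05 (1.23% of all). The median stayed negative without any 1 library, from -0.20 to -0.07, and was -0.04 within letter A and -0.22 within letter B. N737H was lower than I593T for 30 genes (median -0.09, against 51.5% lower over all genes), with 11 non-overlapping genes, all lower (29.7%, against 10.7% of all; 9.67% were higher). Again 0 passed by edgeR (0% of all), and BOP1, at -0.50 ± 0.21, was at an unadjusted p under 0.05 (1.14% of all). Within letter A the median was -0.0035, with 17 of the 37 genes higher in N737H, and within letter B it was -0.17, with 4 higher. Without N737H B the median was 0.02, beside 0.02 for all tested genes. R820W was lower than N737H for 25 genes (median -0.08), where 53.8% of all genes were lower (median -0.02). Values did not overlap for 8 lower (21.6%, against 13.1%) and 5 higher genes (13.5%, against 15.2%). In that comparison 0 passed (0% of all) and 0 had an unadjusted p under 0.05 (1.63% of all). The median was 0.04 without N737H A and 0.01 without R820W B, beside 0.02 and -0.02 for all tested genes. DESeq2 and limma voom called 0 of the 37 in all 3 comparisons of variants.

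Split by the E-box, the genes with and without it were both mostly lower with R820W and N737H. With R820W, 11 of the 14 genes with CACGTG in a window were lower than with WT (median -0.07), and 15 of the 17 without it (-0.16). With N737H the numbers were 10 of 14 (-0.08) and 15 of 17 (-0.12), and with I593T 6 of 14 (0.01) and 12 of 17 (-0.05).

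MYC itself was measured at 741 and 744 CPM in WT, 788 and 702 in R820W, 739 and 639.8 in N737H and 741 and 815 in I593T. Its log2 fold change against WT was 0.01 ± 0.15 with R820W, -0.11 ± 0.15 with N737H and 0.07 ± 0.15 with I593T (edgeR adjusted p 1.00 for each), with 95% intervals of -0.35 to 0.36, -0.46 to 0.25 and -0.28 to 0.42. N737H B was the lowest library for MYC and I593T B the highest, while WT A, the highest for 17 of the 37 genes, was near the middle.

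Between the letters, with 4 libraries a side in place of 2, more of all the genes tested passed than between any constructs. Comparing B with A at the same construct, 25 of the 37 genes were lower and 12 higher in B (median -0.08, against 0.03 over all genes), and 15 (40.5%, against 17.8% of all) were lower in B in all 4 constructs, among them DKC1, HEATR1, UTP20, NPM1 and NIP7, with 3 (8.11%, against 15.2% of all) higher in all 4. Of all genes tested 3.24% passed (1.71% higher and 1.52% lower), and of the 37 genes 0 did by edgeR and by limma voom. At an unadjusted p under 0.05 there were 9, 6 lower and 3 higher, where 23.0% of all genes were called. DESeq2 called 3, UTP20, HEATR1 and FBL, where it called 1287 of all the 13605 genes it tested. UTP20 was at -0.42 ± 0.10 (edgeR, n = 4 per letter, adjusted p 0.0682), HEATR1 at -0.38 ± 0.10 (0.0895), DKC1 at -0.27 ± 0.08 (0.118), FBL at 0.47 ± 0.13 (0.0905), RRP9 at 0.53 ± 0.20 (0.178) and RRS1 at 0.43 ± 0.18 (0.215). Without I593T A or without I593T B, which leave the same 3 pairs of letters, RRP9 was at 0.27 and RRS1 at 0.22. Every A library was above every B library for POLR1B, NOLC1, DKC1, HEATR1, UTP20, TSR1 and GNL3 (18.9%, against 10.0% of all), and below for FBL (2.70%, against 8.0%). The median B minus A difference of the 37 genes was -0.11 in WT, -0.13 in R820W, -0.16 in N737H and 0.02 in I593T.

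The difference between the letters moved with the GC content of the transcripts. The 37 genes ran from 39.7% GC (DDX18) to 65.2% (BOP1), with a median of 51.2% beside 48.2% for all tested genes with a value. Across the 37 genes, which share their libraries and are no replicates, B minus A correlated with GC at a Pearson r of 0.62 in WT, 0.26 in R820W, 0.35 in N737H and 0.66 in I593T. Over all 12496 tested genes with a value r was 0.28, 0.09, 0.09 and 0.38. By rank (Spearman) the values were 0.68, 0.23, 0.19 and 0.70 over the 37 genes and 0.36, 0.13, 0.09 and 0.45 over all. The difference between N737H and I593T had a Pearson r of -0.76 over the 37 genes and of -0.25 over all (by rank -0.73 and -0.43). In I593T the median B minus A difference was 0.50 for the 13 genes of highest GC (56.0% to 65.2%, RRS1, RRP9, FBL and BOP1 among them), beside 0.36 for all tested genes in that range, and -0.16 for the 12 genes of lowest GC (39.7% to 43.9%, UTP20, HEATR1, NPM1 and DDX18 among them), beside -0.13 for all in that range. In WT it was 0.07 for the genes of highest GC, beside 0.30 for all in that range, and -0.24 for those of lowest GC, beside -0.17. These groups by GC were formed after the data had been seen. The fitted deviation at 60% GC was -0.19 in WT A and 0.23 in I593T B, and at 42% GC 0.11 and -0.11.

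With each library corrected for its trend on GC, a step also added after the data had been seen, the I593T values were 0.79 for RRS1, 0.74 for RRP9, 0.44 for FBL and 0.23 for BOP1. The letter difference of FBL became 0.31 (edgeR adjusted p 0.17) and that of UTP20 -0.33 (0.0695), where the adjusted p over all alternatives ran from 0.0271 to 0.314 and from 0.0153 to 0.249. In this correction 0 of the 37 genes passed in any comparison. Between the letters the smallest adjusted p by edgeR were those of SRM (-0.43, adjusted p 0.0593) and NOP16 (-0.25, 0.0653). By edgeR, 12 of the 37 genes then had an unadjusted p under 0.05 between the letters, in place of 9. Over all genes tested there were 3028 of 12496, in place of 3417 of 14834. For R820W 31 genes were then lower, with a median of -0.12. For N737H fewer genes were lower than without the correction, with a median of -0.08, and for I593T the median turned to 0.0014. The part of GC content in the construct differences beyond this correction was not tested.

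**Figure D5:**
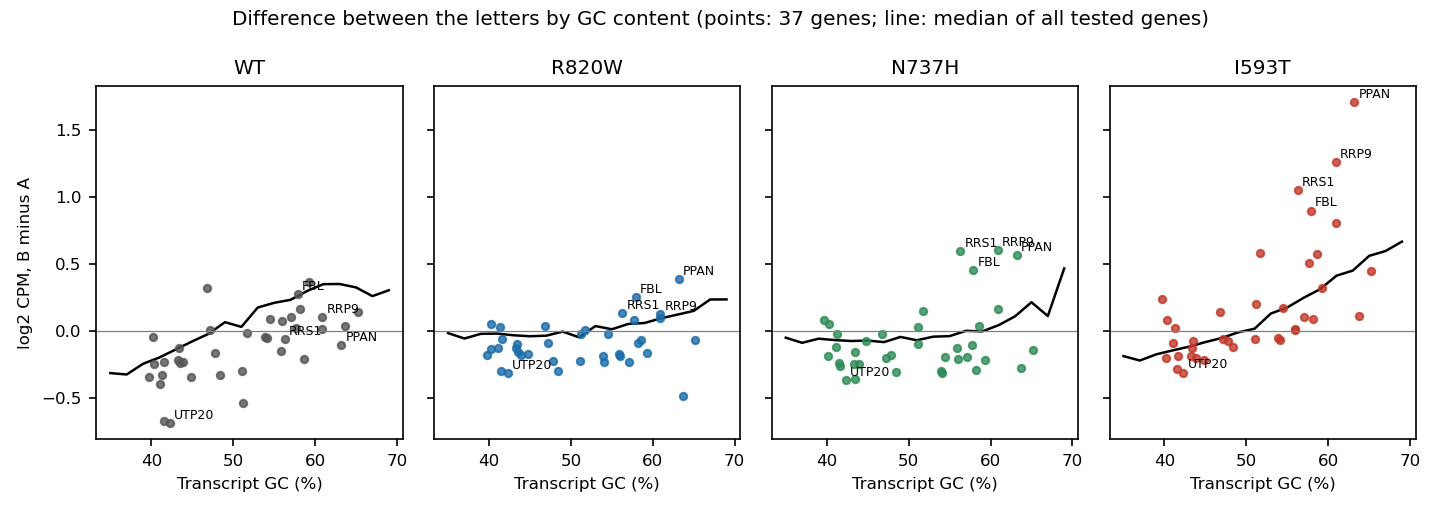
B minus A difference in log2 CPM (vertical axis) against transcript GC content in percent (horizontal axis) in each construct; points are the 37 genes and the line is the median of all tested genes in bins of GC. Points of higher GC tend to lie higher in WT and I593T (r of 0.62 and 0.66 over the 37 genes) and less so in R820W and N737H (0.26 and 0.35), and in WT those of highest GC lie mostly below the line.

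A wider list of 112 other ribosome biogenesis genes, all of them tested, gave the surroundings of the 37. With R820W 91 of the 112 were lower than with WT (median -0.15), with N737H 85 (-0.08) and with I593T 67 (-0.04). By edgeR 0 passed in these comparisons, and 3, 1 and 0 of the 112 had an unadjusted p under 0.05, where 1.04%, 2.44% and 1.43% of all genes did. SDAD1, a large-subunit export factor, had 112 and 87.7 CPM in WT and 73.2 and 70.5 in R820W (-0.48 ± 0.16), and UTP11L, a processome protein, 286 and 248 in WT and 202 and 215 in R820W (-0.36 ± 0.14). AATF was at -0.38 ± 0.16 with N737H. RRP1, which acts in large-subunit processing, was measured at 19.1 and 10.0 CPM in WT, 13.3 and 54.8 in N737H and 16.6 and 105 in I593T (2.06 ± 0.90 against WT with I593T, adjusted p 1.00), so its high values belonged to B libraries like those of RRP9 and RRS1. WDR18 had the same form, at 54.9 and 60.9 CPM in WT and 59.3 and 181 in I593T (1.05 ± 0.53). Between the letters 3 of the 112 passed by edgeR, where 3.24% of all genes did: C7orf50 rose in B by 0.66 ± 0.11 (adjusted p 0.0302), and RRN3, the initiation factor of RNA polymerase I, and RBM28, a nucleolar RNA-binding protein, fell by 0.49 ± 0.09 (0.0404) and 0.43 ± 0.08 (0.0451). RRN3 was measured at 157, 121, 123 and 125 CPM in the A libraries of WT, R820W, N737H and I593T and at 99.7, 95, 94.8 and 83.5 in the B libraries, without overlap, though RRN3 has close pseudogene copies that make its counts uncertain.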

How the data were processed

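The authors deposited 1 table of raw counts per gene for 8 libraries (4 constructs, 2 libraries each). Libraries were prepared with a low-input kit, per the labels' protocols, which do not state strand, so reads of overlapping antisense genes cannot be told apart. The submitters' processing notes name FastQC, MACS2, DESeq2 and build hg19; the sources used here give neither the aligner nor the counting tool.

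From the counts, edgeR 4.0.16 (filterByExpr, TMM, quasi-likelihood F-test on group means of all 8 libraries, two-sided, Benjamini-Hochberg over 14834 genes, threshold 0.05) gave each comparison; the letters were compared with the construct in the model. Of the rows, 5569 had no count. CPM use TMM-scaled totals, and log2 CPM a prior count of 2. SE was the log2 fold change divided by the root of F. Alternatives used DESeq2 1.42.0, limma voom 3.58.1, RLE scaling, other filters, the replicate block, the compared groups alone, each library left out and a GC correction added after seeing the data. Lengths and GC came from the longest coding transcript (GENCODE 29), matched by symbol; promoters came from RefSeq. The fit was tested on simulated data.

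The genes and lists were chosen with earlier results of these data known. Values per library are given for the most abundant gene of each role and, against WT and between letters, for the 3 genes up and 3 down of smallest p; any other gene was singled out with its values in view. Precision rests on the 2 libraries per group (residual df 4 and coefficient of biological variation 0.262). The construct tests leave the difference between the letters in this spread. With the letter in the model the coefficient was 0.19 (residual df 3). By edgeR an unadjusted p under 0.05 held for 1.04% to 2.44% of all genes between constructs, fewer than the threshold alone would give. That 0 genes passed is therefore no sign that the constructs were alike.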

Additional observations from a re-analysis of the deposited data

How the results depend on the processing

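In the 7 comparisons of constructs 0 of the 37 genes passed under every alternative run. Between the letters the number was 0 in the main analysis, 3 with DESeq2 (FBL 0.47, UTP20 -0.42, HEATR1 -0.38) and 0 to 1 when a library was left out: FBL passed at 0.53 both without WT A and without WT B, and its adjusted p ran from 0.0271 to 0.314 over all alternatives. With 1 library of a group left out, the other is assumed to vary like the rest. Over these omissions the median log2 fold change of the 37 genes ran from -0.199 to -0.028 for R820W against WT, -0.178 to 0.046 for N737H, -0.085 to 0.118 for I593T, -0.136 to 0.032 for the mean of variants, -0.153 to 0.038 for R820W against N737H, -0.204 to -0.068 for R820W against I593T and -0.167 to 0.020 for N737H against I593T. Without WT A the median of all tested genes rose too, to between 0.051 and 0.061 in the comparisons with WT. For I593T against WT, ODC1 ran from -0.495 to 0.093 and HEATR1 from -0.55 to 0.176, positive without WT A, and the cause was not tested. The I593T median also turned, to 0.0044 with the filter of 10 counts in 6 libraries and to 0.0014 with the GC correction. A median was called moved where it changed by more than the pooled within-construct SD of 0.087 (between letters, 0.078), which held for 8 of 132 alternatives, all omissions. That rule replaced a first one, the SD of the letter A and B medians, after its outcome was seen: by the first, 30 of 132 moved. Libraries with the same letter deviated together over all genes in 5 of 6 pairs of groups (r 0.31 to 0.41) but hardly for WT with N737H (0.02), and over the 37 genes r was 0.197 to 0.884. As not every pair did so and no label ties a letter to an experiment, pairing was not taken as given. With the letter as replicate block edgeR and DESeq2 called 0 of the 37 genes in each construct comparison; genes of the list at an unadjusted p under 0.05 were 6 in place of 2 for R820W and 4 in place of 2 for I593T in edgeR, while over all genes tested they were 384 in place of 154 and 500 in place of 212. Over all genes 0 passed in each construct comparison in the main analysis, and at most 11 with no filter and 28 with the block in DESeq2. The number of all genes called between the letters was 480, and 760 with no filter and 1287 with DESeq2. It was also above 480 without WT A and without WT B, where FBL passed. Depth limits PPAN most, with 45 to 124 counts a library.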
